A study of Bos taurus with 6 samples.

Results

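The genes described here encode the mitochondrial ribosomal proteins, taken as every array probe whose annotated symbol begins with MRPL or MRPS followed by a digit. The symbol alone chose the members, and no measured value entered the choice. There were 128 such probes among the 43794 probes of the array, for 75 genes among the 15229 genes that the annotation names. By symbol, 46 genes (78 probes) belonged to the large subunit and 29 genes (50 probes) to the small subunit. Of the 128 member probes, 120 (93.8%) were bright enough to be kept, against 27210 of all probes (62.1%). All 75 genes kept at least 1 probe, and each gene is given by its brightest kept probe. For 71 of the 75 genes that probe stood above background in treated and in control RNA on all 6 arrays.

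The RNA came from Holstein granulosa cells, the hormone-producing cells that surround the oocyte. The cells were taken from follicles 2 to 6 mm across and cultured for 5 days without serum, in medium holding FSH and insulin at 10 ng/ml each. For treatment, FGF8 was added at 10 ng/ml for 2 h; it belongs to the fibroblast growth factors, which signal through receptor tyrosine kinases. Treated cells are labelled 2 h, while control cells are labelled 0 h. FGF8, the added time and the handling therefore cannot be told apart. The series gives 3 biological replicates, each hybridised on 2 two-colour arrays with the dyes exchanged, and no label says whether the replicates were separate animals or cultures. All values below come from the deposited table of ratios, log2 of treated over control, averaged over both dye orientations of a replicate and given as mean ± SD over the 3 replicates.

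The median spot read 110 to 163 on the arrays in the Cy5 channel, where negative control spots read 81 to 128. In the Cy3 channel it read 108 to 192, and the negative control spots 73 to 140. Of 11 granulosa markers, 9 had a kept probe, among them FSHR, CYP19A1 and AMH, while FOXL2 and HSD17B1 did not. Kept probes were also found for 8 of 10 theca and stroma markers, 6 of 7 endothelial, 6 of 8 leukocyte and 3 of 5 oocyte markers, and none of these genes passed the test. The arrays hold bulk RNA, in which fewer cells of a type and less RNA per cell cannot be told apart.

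Mitochondrial ribosomes make the few proteins that the mitochondrial genome encodes, all of them subunits of the respiratory chain and the ATP synthase. Their RNAs come from mitochondrial DNA, but every one of their proteins is encoded in the nucleus, translated in the cytosol and imported. Compared with bacterial ribosomes they have lost RNA and gained proteins, so the set holds both homologues of bacterial ribosomal proteins and proteins found only in mitochondria. In steroid-producing cells, mitochondria also house the first step of steroid synthesis from cholesterol.

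No mitochondrial ribosomal protein gene passed the test of treated against control cells. With limma and Benjamini-Hochberg adjustment over all kept probes, 0 of the 120 member probes passed an adjusted p of 0.05, and the smallest adjusted p among them was 0.856. The same test called 1 of all 27210 probes (0.00368%), a probe without a gene name, and 0 of 11200 genes (0%). At an unadjusted limma p under 0.05 there were 4 member probes (3.33%), against 1345 of all kept probes (4.94%). These 4 were single probes of MRPL13, MRPL15, MRPL23 and MRPL45, with the smallest unadjusted limma p, 0.00833, at a probe of MRPL23. Among the brightest probes of the 75 genes, 2 lay lower in treated cells at that unadjusted threshold (2.42% of all genes did) and 0 lay higher (3.10% of all genes did).

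As a group the 75 genes stood close to a ratio of 1. Their median log2 ratio was -0.029, against 0.0054 over all 11200 genes, and in the 3 replicates it was 0.012, -0.042 and -0.12. The replicate medians of all genes were -0.010, -0.0011 and 0.020. The mean ratio lay below 0 in 43 of the 75 genes (57.3%), against 49% of all genes. In replicates 1, 2 and 3 taken singly, 37, 48 and 44 of the 75 genes were below 0, where 51.2%, 50.2% and 47.8% of all genes were. The small negative median depended on how the arrays were normalized, and 1 of 16 alternatives moved it above 0. With the arrays centred on their median without loess, the members' median was 0.17 and that of all genes 0.093.

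The difference between the large and the small subunit lay within its spread over the replicates. The median of the 46 large subunit genes was -0.042, with replicate medians of -0.028, -0.041 and -0.090. The median of the 29 small subunit genes was -0.0053, with replicate medians of 0.13, -0.065 and -0.17. The difference, large minus small, was thus -0.16 in replicate 1, 0.024 in replicate 2 and 0.084 in replicate 3, or -0.017 ± 0.13 (SD, n = 3). It changed sign between replicates and its mean was smaller than its spread.

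Symbols and structure do not match for 3 of the small subunit names. MRPS30 and MRPS18A sit in the large subunit of the mammalian structure, and MRPS36 is now known as a component of the 2-oxoglutarate dehydrogenase complex. Moving the first 2 to the large subunit and leaving out MRPS36 gave a difference of -0.12, 0.028 and 0.011, or -0.026 ± 0.080 (SD, n = 3). MRPS30 itself stood at 0.16, -0.067 and -0.61 in the 3 replicates. MRPS18A stood at -0.048, 0.32 and -0.47, and MRPS36 at 0.53, -0.023 and -0.17. All 3 had values on both sides of 0, so none of them leaned one way throughout.

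**Figure D1:**
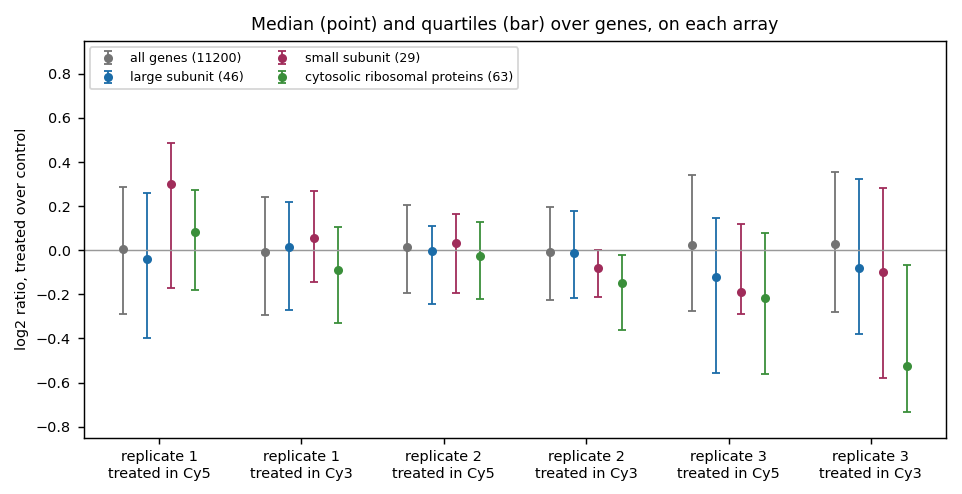
Log2 ratio of treated over control RNA (vertical axis) on each of the 6 arrays (horizontal axis) for all genes, large subunit genes, small subunit genes and cytosolic ribosomal protein genes; points are medians over genes and bars run from the lower to the upper quartile. The quartile bars of both subunits cross 0 on all arrays except the replicate 2 array with treated RNA in Cy3, where the small subunit bar ends just below 0, and the small subunit median turned from 0.30 on the first array of replicate 1 to -0.19 on the matching array of replicate 3.

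Members kept 1 sign at a share near that of all genes. Of the 75 genes, 17 (22.7%) had the same sign in all 3 replicates, against 26.2% of all genes. Of these, 5 were higher in treated cells (13.6% of all genes were) and 12 were lower (12.7% of all genes were). On all 6 arrays, 0 of the 75 genes were higher (3.49% of all genes were) and 4 were lower (2.51% of all genes were). By subunit, 13 of 46 large and 4 of 29 small subunit genes kept their sign over the replicates. A mean ratio beyond 1.5-fold in either direction was reached by 1 of the 75 genes, MRPS11, and by 1.77% of all genes.

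**Figure D2:**
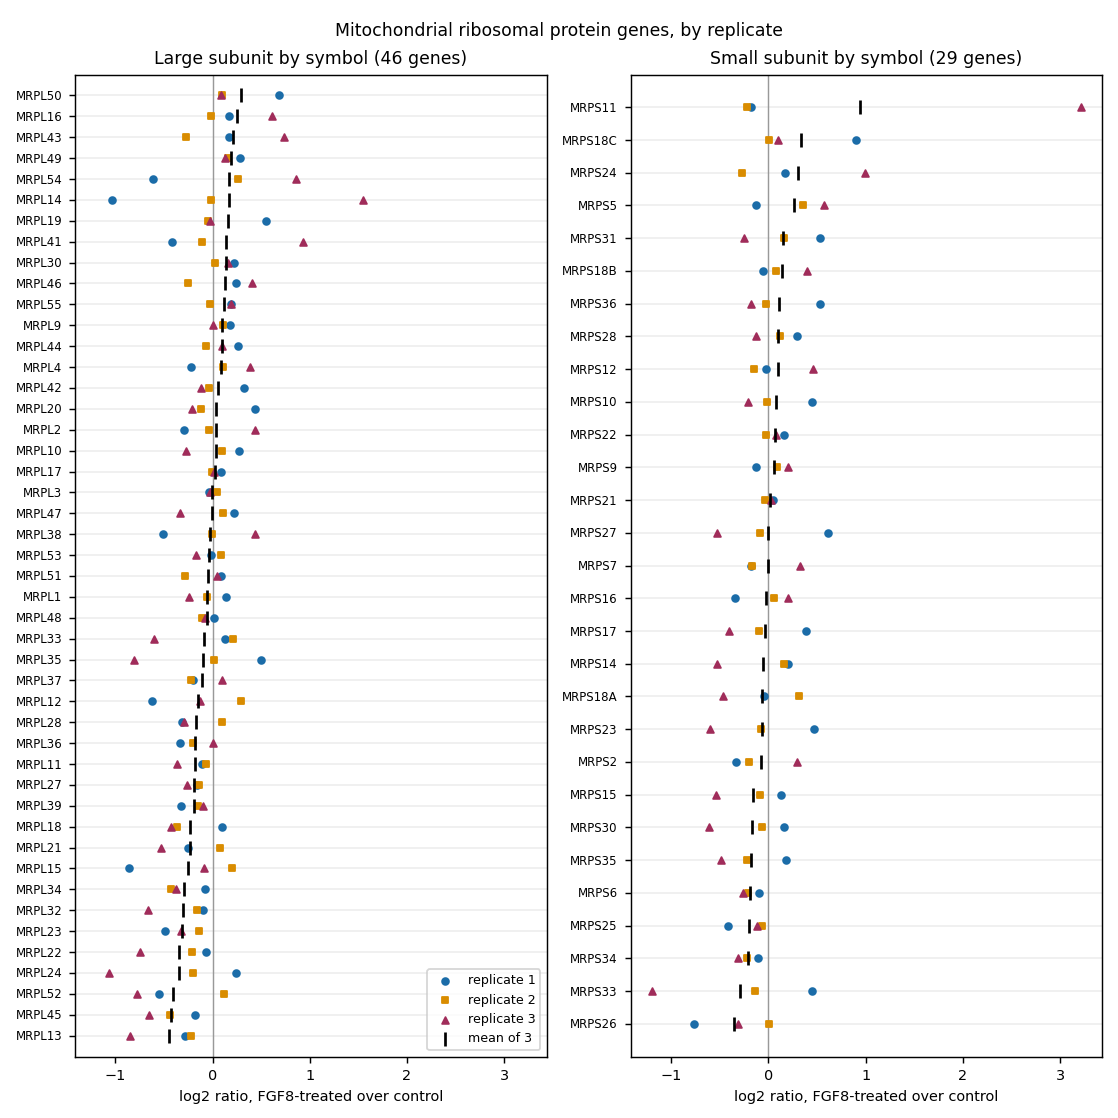
Log2 ratio of treated over control RNA (horizontal axis) for each of the 75 genes, with large subunit genes on the left and small subunit genes on the right; points are the 3 replicates, each the mean of its dye swap, and vertical ticks are their mean. Most genes have points on both sides of 0, replicate 2 stays nearest to 0, and MRPS11 in replicate 3 stands apart at 3.21.

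Among large subunit proteins, those around the exit tunnel, where the new chain leaves the ribosome, had the lowest median of the structural groups examined. Their 6 genes had a median of -0.33, with replicate medians of 0.0057, -0.17 and -0.50. Of the 6, 5 had a mean below 0, against 49% of all genes. The median was -0.061 without replicate 3 and -0.17 when the probes of a gene were averaged. MRPL45, which in mammals lines the end of the tunnel and holds the ribosome at the inner membrane, stood at -0.18, -0.44 and -0.66, or -0.43 ± 0.24, with an unadjusted limma p of 0.024 and an adjusted p of 0.856. All 3 replicates were below 0, while 1 of the 6 arrays was above it at 0.069. Its other probe, however, averaged 0.19.

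MRPL22, a tunnel wall protein, stood at -0.073, -0.21 and -0.74, or -0.34 ± 0.36, and its 3 probes averaged between -0.34 and -0.15. MRPL23, at the rim of the tunnel, stood at -0.49, -0.14 and -0.32, or -0.32 ± 0.17. Its other probe averaged -0.52, so both probes lay on the same side. MRPL24, also at the exit, varied most within the group, at 0.24, -0.20 and -1.06. MRPL47 stood at 0.22, 0.10 and -0.34, and its mean of -0.0049 was only just below 0. MRPL17 stood at 0.084, -0.0039 and 0.0095 and was the only gene of the group with a mean above 0. The median of the group was lowest in replicate 3 and near 0 in replicate 1, and none of the 6 genes passed the test.

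The stalk is the flexible arm that recruits translation factors. MRPL10, which anchors it, stood at 0.27, 0.10 and -0.27. MRPL11, at its base, stood at -0.11, -0.063 and -0.37, or -0.18 ± 0.17. MRPL12, the protein that forms the arm and that also binds the mitochondrial RNA polymerase in human cells, stood at -0.63, 0.29 and -0.13, or -0.15 ± 0.46. Only MRPL11 kept its sign, and the median of the 3 stalk genes was -0.15.

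Of the central protuberance, the crest of the large subunit that faces the small one, 5 genes were measured, with a median of -0.029 and replicate medians of 0.095, -0.10 and 0.19. MRPL3, which reaches towards the catalytic centre, hardly departed from 0, at -0.037, 0.050 and -0.028, or -0.0046 ± 0.048. MRPL44, a protein with a ribonuclease III fold that is mutated in an inherited human cardiomyopathy, stood at 0.26, -0.064 and 0.093. Neither gene differed from 0 by more than its spread between replicates.

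The 6 lowest genes with 1 sign in all replicates were MRPL13, MRPL45, MRPL22, MRPL23, MRPL32 and MRPL34, all of the large subunit. MRPL13, a homologue of a bacterial large subunit protein, had the lowest mean of all 75 genes. It stood at -0.29 and -0.28 on the arrays of replicate 1, at -0.23 and -0.20 in replicate 2 and at -0.71 and -0.998 in replicate 3. The mean was -0.45 ± 0.35 (limma, unadjusted p = 0.033, adjusted p = 0.856). Every array lay below 0, with replicate 3 well beyond the others, but the gene's second probe averaged 0.058.

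MRPL32, whose precursor is cut by the m-AAA protease before it joins the ribosome, stood at -0.10, -0.16 and -0.67, or -0.31 ± 0.31. MRPL34, one of the smallest large subunit proteins, stood at -0.083, -0.43 and -0.38, or -0.30 ± 0.19, and was below 0 on all 6 arrays. Both were nearest to 0 in replicate 1.

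The other genes below 0 in all 3 replicates were nearer to it. MRPL11 and MRPS34 are described with their groups. MRPL39, found only in mitochondria, stood at -0.33, -0.15 and -0.094, and MRPL27, a homologue of a bacterial protein near the catalytic centre, at -0.16, -0.14 and -0.26. MRPS25, found only in mitochondria, stood at -0.41, -0.065 and -0.12, and MRPS6, a homologue of a bacterial platform protein, at -0.10, -0.21 and -0.26. MRPS25 and MRPS6, together with MRPL13 and MRPL34, were the 4 genes below 0 on all 6 arrays. However, the second probe of MRPS6 averaged 0.17, and the further kept probes of MRPL39 averaged 0.029 and 0.034. The second probe of MRPS25 averaged -0.064.

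On the other side, 5 genes were above 0 in all 3 replicates, 4 of them of the large subunit. MRPL50, found only in mitochondrial ribosomes, stood at 0.69, 0.097 and 0.085, or 0.29 ± 0.34. MRPL49, also without a bacterial counterpart, stood at 0.29, 0.16 and 0.13, or 0.19 ± 0.083, while its second probe averaged -0.092. MRPL30 and MRPL9, homologues of bacterial ribosomal proteins, averaged 0.13 ± 0.10 and 0.097 ± 0.089. Replicate 1 was the highest of the 3 in each of these 4 genes, and each gene had at least 1 of its 6 arrays below 0. For MRPL9, every array with treated RNA in Cy5 lay below 0, at -0.14 to -0.012. Its arrays with treated RNA in Cy3 all lay above 0, at 0.14 to 0.38.

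By origin, the 30 large subunit genes with a bacterial homologue had a median of -0.094. Of these, 19 (63.3%) were below 0, against 49% of all genes. The 16 found only in mitochondria had a median of 0.012, 8 of them below 0. Their replicate medians were -0.055, -0.023 and -0.25 for the first and -0.0035, -0.085 and 0.089 for the second, so their order was not the same in all replicates. In the small subunit, the 16 bacterial homologues had a median of 0.036, 7 of them below 0. The 10 genes listed as mitochondria-specific had a median of -0.12, 7 of them below 0. Those 10 include MRPS18B, although it is related to a bacterial protein. The replicate medians were 0.013, -0.059 and 0.15 for the homologues and 0.17, -0.069 and -0.31 for the mitochondria-specific genes, so here too the order differed between replicates. These differences were not tested. With the arrays centred on their median without loess, all 4 of these medians were above 0, as was that of all genes at 0.093. They stood at 0.098 and 0.22 for the large subunit and at 0.22 and 0.021 for the small one.

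In the small subunit, 3 homologues of bacterial proteins named for their roles had replicate values on both sides of 0. MRPS12, the homologue of the bacterial protein that monitors codon pairing, stood at -0.022, -0.15 and 0.46. Its probe was dim, above background on 4 arrays in treated and 3 in control RNA. MRPS7, a protein of the head, stood at -0.17, -0.17 and 0.33, or -0.0053 ± 0.29. MRPS16, mutated in a human respiratory chain disorder, stood at -0.35, 0.059 and 0.20. Replicate 3 was the highest of the 3 for each of these genes.

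Of the 10 small subunit genes listed as mitochondria-specific, 4, 7 and 8 were below 0 in replicates 1, 2 and 3. The shares of all genes were 51.2%, 50.2% and 47.8%. The list holds MRPS18B, described below, although it is related to a bacterial protein. MRPS27, a pentatricopeptide repeat protein that binds RNA, stood at 0.61, -0.086 and -0.53. MRPS22, in which human mutations also impair the respiratory chain, stood at 0.16, -0.020 and 0.081. MRPS34, needed for a stable small subunit in mice, stood at -0.10, -0.22 and -0.32, or -0.21 ± 0.11, and was below 0 in all 3 replicates. MRPS34 nevertheless had 2 of its 6 arrays above 0, and its mean did not pass the test. Its probe was dim, above background on 4 arrays in treated and 5 in control RNA, and its second probe averaged -0.038.

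MRPS18A, MRPS18B and MRPS18C are 3 paralogues of 1 bacterial protein that occupy different places in the ribosome. MRPS18C stood at 0.90, 0.0097 and 0.10, or 0.34 ± 0.49, and its second probe averaged 0.14. Both arrays of replicate 1 were high, at 0.91 and 0.90, while the others lay between -0.058 and 0.25. MRPS18B stood at -0.052, 0.078 and 0.40, or 0.14 ± 0.23. With MRPS18A, above, all 3 paralogues were above 0 in replicate 2, and their signs differed in replicates 1 and 3.

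MRPS11, a protein of the platform of the small subunit, was the one member with a mean ratio beyond 1.5-fold, and this came from 1 replicate alone. Its arrays stood at -0.037 and -0.31 in replicate 1, at -0.21 and -0.23 in replicate 2, and at 3.51 and 2.92 in replicate 3. The replicate 3 value of 3.21 is a 9.28-fold ratio, the 4th highest of 11200 genes in that replicate. All 4 probes of the gene were above 0 on both arrays of replicate 3, at 1.02 to 3.21, whereas their values in replicates 1 and 2 lay between -0.22 and 0.20. Over the 3 replicates the mean was 0.94 ± 1.97, with an adjusted limma p of 0.856, and without replicate 3 it was -0.20. Without MRPS11, the median of the small subunit was -0.017 in place of -0.0053.

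The next gene along the chromosome is another member, MRPL46, a protein of the central protuberance, and this was the only pair of members that are direct neighbours among the protein-coding genes of the RefSeq annotation. MRPL46 stood at 0.24, -0.25 and 0.41. Replicate 3, where MRPS11 stood at 3.21, was also the highest of the 3 for MRPL46, with replicate 1 next.

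MRPL14 and MRPS33 were next in spread. MRPL14, which lies at the interface of the subunits, stood at -1.04, -0.018 and 1.55, or 0.16 ± 1.30, so that it was 2.05-fold lower in replicate 1 and 2.92-fold higher in replicate 3. Its second probe averaged -0.39, below 0 in replicate 3 as well. MRPS33, a small mitochondria-specific protein, stood at 0.45, -0.14 and -1.20, or -0.29 ± 0.84, which is 2.29-fold lower in replicate 3. Its second probe averaged -0.18 and was also lowest in replicate 3. For both genes the 2 arrays of replicate 1 had 1 sign and the 2 arrays of replicate 3 the other.

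Several further members had wide ratios in 1 or 2 of the replicates. MRPS24, a homologue of the bacterial protein at the messenger RNA entry, stood at 0.17, -0.27 and 0.997, and MRPL41, found only in mitochondria, at -0.41, -0.11 and 0.93. MRPL54, also mitochondria-specific, stood at -0.61, 0.26 and 0.85. In the other direction, MRPL35, with a bacterial homologue, stood at 0.50, 0.016 and -0.81. MRPL52 stood at -0.55, 0.11 and -0.78 and MRPS26 at -0.76, 0.0037 and -0.31, both without a bacterial counterpart. These 6 genes stood furthest from 0 in replicate 3, apart from MRPS26, which did so in replicate 1, and each had values on both sides of 0. Where a gene had other kept probes, these stood nearer to 0 in the same replicate. They gave -0.039 for MRPL41, 0.23 for MRPL54, -0.31 and -0.076 for MRPL35, and -0.35 for MRPS26.

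**Figure D3:**
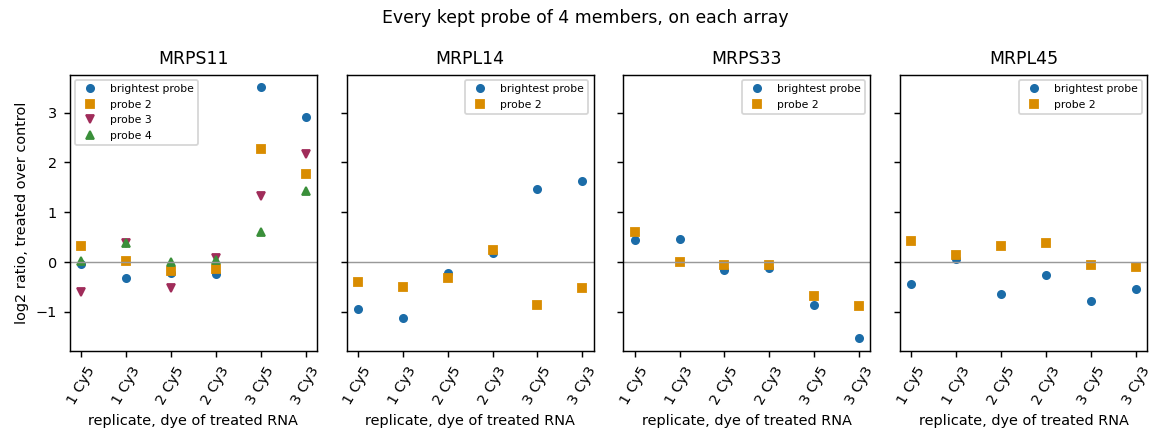
Log2 ratio of treated over control RNA (vertical axis) on each of the 6 arrays (horizontal axis, replicate number and dye of the treated RNA) for every kept probe of MRPS11, MRPL14, MRPS33 and MRPL45; each symbol is 1 probe. The 4 probes of MRPS11 and both probes of MRPS33 go the same way in replicate 3, while the 2 probes of MRPL14 part there and those of MRPL45 lie on opposite sides of 0 on 3 of the 6 arrays.

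Replicate 3 had the widest spread over the members and replicate 2 the narrowest. The SD over the 75 genes was 0.37, 0.17 and 0.62 in replicates 1, 2 and 3, against 0.41, 0.23 and 0.48 over all genes. Without MRPS11 the SD in replicate 3 was 0.49, close to that of all genes. Ratios beyond 2-fold were found in 1 member in replicate 1 (2.44% of all genes), in 0 in replicate 2 (0.179% of all genes) and in 4 in replicate 3 (4.83% of all genes). Across the 75 genes, Pearson's r was -0.057 between replicates 1 and 2, -0.25 between 1 and 3 and 0.010 between 2 and 3, the last being 0.11 without MRPS11. Over all genes the same values were -0.029, -0.054 and 0.12. These correlations are over genes that share arrays, so they describe the data and have no test.

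The sign of a member in replicate 1 was opposite to that in replicate 3 in 39 of the 75 genes, against 48.7% of all genes. In the small subunit this was so for 20 of 29 genes. Members above 0 in replicate 1 and below 0 in replicate 3 numbered 23 (22.6% of all genes), 12 of them in the small subunit, and the opposite course was taken by 16 (26.0% of all genes). According to the array names, replicates 2 and 3 lay on 1 slide and replicate 1 on others, although no label states the slide. From replicates 2 and 3 alone, the median was -0.083 for all members, -0.085 for the large and -0.075 for the small subunit.

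The 2 arrays of a replicate carry the same RNA with the dyes exchanged. Across the 75 genes they correlated at 0.58 in replicate 1, -0.17 in replicate 2 and 0.68 in replicate 3, and over all genes at 0.58, -0.052 and 0.53. Without MRPS11 the value of replicate 3 was 0.55. In replicates 1 and 3 the members' ratios were thus kept in part when the dyes were exchanged, about as over all genes. In replicate 2, where the ratios were smallest, they were not. In means over the 3 arrays of each orientation, 34 of the 75 genes changed sign with the dyes, against 45.9% of all genes.

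A dye effect, that is a ratio of Cy5 over Cy3 that stays after the treatment is averaged out, was called in 7 of the 120 member probes (5.83%) by limma, against 8.24% of all probes. The brightest probe of MRPS7 averaged -0.76 when Cy5 carried the treated RNA and 0.75 when Cy3 did. MRPL38, of the central protuberance, went from -0.49 to 0.43, and MRPL42, found only in mitochondria, from -0.31 to 0.42. MRPS9, a homologue of a bacterial head protein, went the other way, from 0.50 to -0.39. The MRPS9 probe was dim, above background on 4 arrays in treated and 4 in control RNA. The treatment ratio, the mean of both orientations, was -0.0053 for MRPS7, -0.029 for MRPL38, 0.053 for MRPL42 and 0.057 for MRPS9. For these 4 genes the orientations stood on opposite sides of 0 and their mean close to it.

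**Figure D4:**
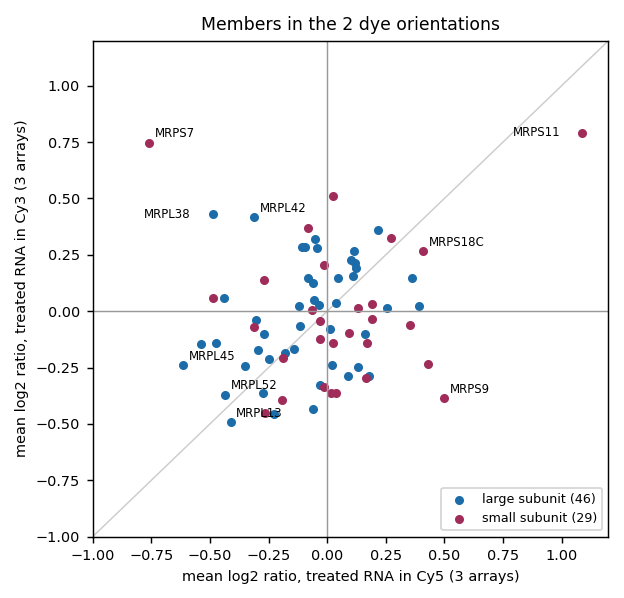
Mean log2 ratio of treated over control RNA for each of the 75 genes where Cy5 carried the treated RNA (3 arrays, horizontal axis) and where Cy3 did (3 arrays, vertical axis); each point is a gene, coloured by subunit, and the diagonal marks equal values. MRPS7, MRPL38, MRPL42 and MRPS9 lie far from the diagonal in the quadrants of opposite sign, and MRPS11 lies at the upper right.

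Different probes of a gene disagreed about as often as elsewhere on the array. Several probes were kept for 33 member genes, and in 15 of these (45.5%) their means lay on opposite sides of 0, against 1349 of 2576 genes (52.4%) in all. The range between the probes of a gene had a median of 0.18 among members and 0.21 among all genes. The widest range was that of MRPL15, a large subunit protein with a bacterial homologue, whose 3 probes averaged between -0.25 and 0.43. MRPL45 and MRPL14, described above, came next.

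Mitoribosome proteins whose symbols do not begin with MRPL or MRPS and a digit were few on the array and also gave no call. Their 7 genes had a median of -0.050, 5 of them below 0 (49% of all genes were), and 0 passed the test. DAP3, a GTP-binding small subunit protein first known for a part in cell death, stood at 0.51, 0.080 and 0.43, or 0.34 ± 0.23. PTCD3, a pentatricopeptide repeat protein of the small subunit, averaged -0.050 ± 0.18, and ICT1, which releases stalled chains from the large subunit, -0.16 ± 0.29. Only DAP3 of these 3 kept its sign in all replicates.

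The factors that work with the mitochondrial ribosome did not pass the test either. The 13 translation factors had a median of -0.018, 7 of them below 0 (49% of all genes were). Among them, the elongation factors TUFM and GFM1 averaged 0.10 ± 0.18 and 0.034 ± 0.46, and LRPPRC, which stabilises mitochondrial messenger RNAs, -0.12 ± 0.51. The initiation factor MTIF2 stood at 0.81, -0.034 and 0.0059, high in replicate 1 alone. The 14 assembly factors had a median of -0.0093, 8 of them below 0, and the 9 mitochondrial aminoacyl-tRNA synthetases one of 0.047, 2 of them below 0. For the 9 genes of mitochondrial DNA transcription and replication the median was 0.027, 4 of them below 0, with TFAM, which packages the mitochondrial genome, at -0.099 ± 0.22.

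The 8 nuclear regulators of mitochondrial genes had the highest median of these lists, 0.30, and 0 were called. Of them, 3 were below 0, against 49% of all genes. The median was 0.073 without replicate 3 and 0.17 when the probes of each gene were averaged. NRF1, a transcription factor that acts on many nuclear genes for mitochondrial proteins, stood at -0.56, 0.022 and -0.98, or -0.51 ± 0.51, with an unadjusted limma p of 0.045 and an adjusted p of 0.856. GABPA, the DNA-binding subunit of another such factor, gave nearly equal values of 0.23, 0.27 and 0.32, or 0.27 ± 0.045. On single arrays, however, GABPA stood at 0.41 to 0.87 where Cy5 carried the treated RNA and at -0.23 to 0.051 where Cy3 did. PPARGC1A, a coactivator of mitochondrial genes, averaged -0.034 ± 0.23.

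**Figure D5:**
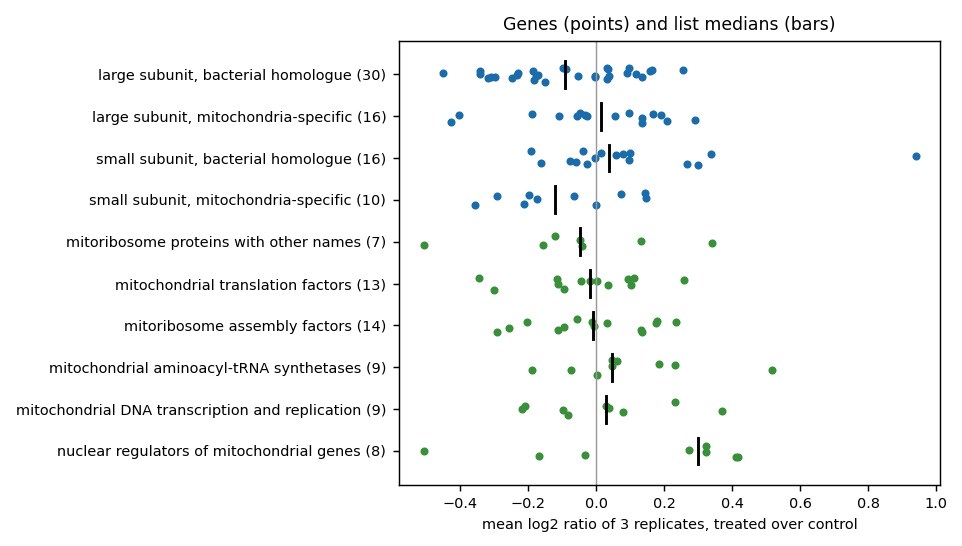
Mean log2 ratio of treated over control RNA over 3 replicates (horizontal axis) for the genes of each list (vertical axis, number of genes in brackets); points are genes, blue for members and green for other genes, and bars are list medians. The medians of the 4 member lists lie between -0.12 and 0.036, and that of the nuclear regulators at 0.30 comes from 5 genes between 0.27 and 0.42 and 3 below 0.

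Cytosolic ribosomal proteins, which make up the ribosomes of the rest of the cell, had a lower median than the mitochondrial ones. Of their 63 genes, 52 (82.5%) had a mean below 0 (49% of all genes did), the median was -0.13, and 0 passed the test. Their replicate medians were -0.017, -0.095 and -0.34, against 0.012, -0.042 and -0.12 for the mitochondrial ribosomal proteins. Both sets were lowest in replicate 3. With the arrays centred on their median without loess, the medians were 0.11 and 0.17, where that of all genes was 0.093. The difference between both sets was not tested.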

How the data were processed

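Per the labels, total RNA from few cells was amplified linearly in 2 rounds and its product labelled chemically with Cy3 or Cy5. The 6 arrays form 3 dye-swapped replicates. The deposited value table holds 1 log2 ratio per probe and array. Scale and direction were found by comparison with the scanner tables: all 6 columns are treated over control, matching loess-normalized median foreground minus background at r = 1.00 with slopes of 1.00, with column medians of -0.00085 to 0.0067. The deposited scanner tables hold, per the file headers, foreground and background intensity per spot in each channel, not background-corrected. For the scanner and its software nothing is given in the sources used here.

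The log2 ratios were used as deposited by the authors. From the scanner intensity, 143 probes with an ignore mark on any array were dropped. Probes had to exceed the 95th percentile of the 153 negative control spots in treated or in control RNA on at least 4 of 6 arrays. The 2 arrays of a replicate were averaged, and 3 values per probe were tested against 0 by lmFit and eBayes (limma 3.58.1, R 4.3.3) in a two-sided test. P-values were adjusted by Benjamini-Hochberg over the whole kept table, with 0.05 as the threshold. The p-values measure only the spread between these samples, and the number of arrays limits the precision. Dye effects were tested likewise on the mean of Cy5 over Cy3. Only the limma fit was checked on simulated data, with added changes larger than the mean ratio of any member. Treated and control RNA of a replicate share an array, so the design pairs them within every ratio.

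Symbols came from the platform annotation, which names 21790 probes and leaves 22004 unnamed; all 75 member symbols are current in RefSeq. Genes named one by one are the 6 highest and 6 lowest of those with 1 sign in all replicates (only 5 were higher), genes chosen by role, the 3 widest over probes, the 3 widest over replicates and those with a called dye effect. MRPL17, MRPL24, MRPL46, MRPL47, the remaining genes below 0 in all replicates (MRPL27, MRPL39, MRPS6 and MRPS25) and the further members named for their range fall outside this rule and were chosen after their values were seen. The members, lists and rules were chosen with earlier results of these data known. Alternatives tried were other background corrections and normalizations, scaling, filters on dim probes, averaging of probes, an intensity trend, all 6 arrays with or without a replicate block, single dye orientations, the subunit by structure, the mean in place of the median and leaving out each replicate. Sequences were not used here.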

Additional observations from a re-analysis of the deposited data

Results flagged for a closer look

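In 7 member probes the ratio of treated over control RNA differed between the dye orientations by the test of that difference, limma's dye effect with adjustment over all kept probes; 8.24% of all kept probes were called so, against 5.83% of the members. The dye effect, as log2 of Cy5 over Cy3, was -0.75 for the brightest probe of MRPS7, -0.46 for that of MRPL38, -0.36 for that of MRPL42 and 0.44 for that of MRPS9. For probes that do not represent their gene it was -1.06 for MRPL49, -0.40 for MRPS11 and -0.44 for MRPS18A. The MRPL49 probe averaged -1.16 when Cy5 carried the treated RNA and 0.97 when Cy3 did, and -0.092 over both. The MRPS18A probe averaged -0.46 and 0.43. The MRPS11 probe averaged 0.066 and 0.87, with replicate 3 above 0 in both orientations. Groups of 3 replicates were too small for a check on single outlying samples.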

How the results depend on the processing

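No member probe and no gene of the mitochondrial lists was called under any of the 15 alternatives in which probes were tested. The difference of medians, large minus small, ranged from -0.10 to 0.057 over 17 alternatives, 14 of them below 0. Centring the arrays on their median without loess moved the median of all genes to 0.093 and that of all members to 0.17. It moved the large subunit to 0.20 and the small to 0.17. This centring gave 32 members with 1 sign in all replicates and 46 member probes with a dye effect, and the cause was not tested. For such counts of members under alternatives, the shares of all genes or probes are not given here. They are therefore not read as particular to the members. With mean foreground, 32 member probes had a dye effect and 0 of all probes were called for treatment. Averaging the probes of a gene gave a large subunit median of -0.0048. Arrays with treated RNA in Cy3 alone gave 26 members with 1 sign, and those with treated RNA in Cy5 alone 10 called probes of the whole table, none a member.

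With all 6 arrays as separate values, 15 probes of the whole table were called with the replicate block and 19 without it, and the block changed no call of a member. Leaving out 1 replicate gave 34 to 39 members with 1 sign, since 2 replicates share a sign more often than 3, a large subunit median of -0.085 to -0.045, and 0 to 1 called probes of the whole table. MRPS11, MRPL14 and MRPS33 turned sign without replicate 3, to -0.20, -0.53 and 0.16. For the genes named by rule, 585 of 654 values under alternatives kept their sign and 69 turned it; all stayed on the uncalled side of the threshold. Precision is limited by 3 replicates. Over all probes the median signal was close to that of the negative control spots, and its bearing on precision was not tested. The brightest probes of 71 of the 75 member genes stood above background in treated and control RNA on all 6 arrays.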
